A study of Homo sapiens with 8 samples.

Results

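Splicing factor and snRNP genes were taken here as the genes whose symbols start with SRSF, SF3A, SF3B, SNRP, U2AF, PRPF, HNRNP or LSM, with a digit after SRSF, SF3A, SF3B and LSM. HNRNPA2B1 and HNRNPC were left out. The rule gave 83 of the 16726 genes listed. RNA sequencing measured them in 2 acute myeloid leukaemia cell lines, NB4 and MM6 (MonoMac 6), each carrying a lentiviral short hairpin in the pLKO.1 vector. The 4 groups, with 2 libraries each, were NB4 with the METTL14 hairpin shM14 (labelled shM14-#2), NB4 with the scrambled control hairpin shNS, MM6 with shM14 and MM6 with shNS. All cells, controls included, had been under 0.5 µg/mL puromycin for 2 passages. Only 1 METTL14 hairpin was used, so an effect of that hairpin on other targets cannot be told apart from an effect of METTL14. NB4 is known as a promyelocytic and MM6 as a monocytic line, whereas their labels both read acute monocytic leukemia.

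METTL14 is the partner of METTL3 in the enzyme that writes N6-methyladenosine on messenger RNA, and the comparison asks how the RNA of the splicing machinery differs when it is lowered. Splicing removes introns through the spliceosome, which is built from small nuclear RNAs packed in protein, the snRNPs. A ring of 7 Sm proteins surrounds the U1, U2, U4 and U5 RNAs, and a related LSm ring binds U6. U2AF and the SF3 complexes recognise the end of the intron and its branch point, and the PRPF proteins carry the machine through assembly and catalysis. SR proteins mostly promote the use of exons that they bind, hnRNP proteins often oppose it, and many genes of both families also regulate their own mRNA through alternative exons. Such isoforms are not visible in values summed per gene.

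Depth was 23272126 to 28814911 reads per library over the listed genes. METTL14 itself was at 8.35 and 8.35 RPKM in NB4 shM14, against 14.1 and 12.5 RPKM in NB4 shNS, and at 6.54 and 6.55 RPKM in MM6 shM14, against 12.5 and 13.4 RPKM in MM6 shNS. RPKM, the unit worked out for the deposited values, counts reads per kilobase of gene model and is scaled to the reads of each library. The change, shM14 minus shNS in log2(RPKM + 1), was -0.61 in NB4 (SE 0.07, adjusted p = 0.0024, limma with Benjamini-Hochberg adjustment) and -0.88 in MM6 (SE 0.13, adjusted p = 0.088). It passed the threshold of 0.05 in NB4 and not in MM6. The 6 monocyte markers summed to 105.2 and 106.8 RPKM in NB4 shM14, against 32.34 and 33.68 RPKM in NB4 shNS; in MM6 they ranged from 8234 to 14400 RPKM with shM14 and from 5866 to 9237 RPKM with shNS. Promyelocyte markers summed to 2346 to 2387 RPKM in NB4 shM14 and 2596 to 2694 RPKM in NB4 shNS, and to 4659 to 5045 RPKM in MM6 shM14 and 4389 to 4573 RPKM in MM6 shNS. Single genes dominated these sums, MPO the promyelocyte sum of NB4 (2118 and 2152 RPKM in shM14, against 2399.6 and 2489.9 RPKM in shNS) and LYZ the monocyte sum of MM6 (14301 and 8164 RPKM in shM14, against 9206 and 5836 RPKM in shNS). Other promyelocyte markers of NB4 moved apart, with PRTN3 at 127 and 129 RPKM in shM14, against 46.1 and 44.1 RPKM in shNS, and CTSG at 6.73 and 6.85 RPKM in shM14, against 41.9 and 44.9 RPKM in shNS. Apart from LYZ, each monocyte marker was higher in MM6 shM14 than in MM6 shNS without overlap, though none passed in MM6. CD14 was at 63.2 and 36.3 RPKM in MM6 shM14, against 14.7 and 12.2 RPKM in MM6 shNS. The part of these marker shifts in the results below was not tested. The 4 listed T cell markers summed to 60.22 and 62.34 RPKM in NB4 shM14, against 47.18 and 49.11 RPKM in NB4 shNS, and to at most 6.313 RPKM in MM6. CD3D made up most of the NB4 sum, at 60.6 and 58.5 RPKM in shM14, against 46.9 and 45.0 RPKM in shNS. CD3G and CD247 were under 1 RPKM in every library. CD8A was lower in NB4 shM14, at 0.664 and 0.874 RPKM, against 1.13 and 1.45 RPKM in NB4 shNS. B cell markers summed to at most 2.984 RPKM and the fibroblast and epithelial ones to at most 15.57 RPKM in any library, and the 3 listed erythroid markers were each under 1 RPKM throughout. In bulk RNA, fewer cells of a type and less RNA per cell cannot be told apart. Nothing in the labels tells whether the 2 libraries of a group are separate cultures, and p-values here reflect no more than the spread between libraries.

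Most members were abundant. HNRNPH1, which binds runs of guanine near splice sites, had the highest mean over the 8 libraries at 343 RPKM, followed by the Sm protein gene SNRPB at 312 RPKM and by HNRNPD at 284 RPKM. Next came SNRPG, U2AF1, SNRPD2, HNRNPL, HNRNPAB, HNRNPK and SRSF5, between 182 and 250.3 RPKM. RPKM depends on the gene model, and the models of SRSF10, SRSF1 and LSM8 were long, at 31089, 14635 and 12522 bases, so their levels are low for their read counts. A gene was tested where it reached 1 RPKM in at least 2 of the libraries fitted, which kept 80 members in NB4 and 78 in MM6. The SR gene SRSF12 (0.278 to 0.477 RPKM) and the pseudogenes HNRNPA3P1 and HNRNPKP3 (0.0577 to 0.59 RPKM) were never tested, and PRPF40B and the pseudogene HNRNPA1P33 were not tested in MM6.

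In NB4, knockdown was accompanied by small shifts in both directions, with more members higher than lower. Of 80 tested, 21 rose, 11 fell and 48 did not pass. The share called, 40.0%, was below the 47.4% of all 11531 tested genes (22.1% higher and 25.2% lower). The median change of the members was 0.08 in log2, against -0.01 for all tested genes, and no member changed by a full log2 unit. Scaling by median of ratios in place of total reads gave 27 higher and 7 lower. That scaling also raised the median change of all tested genes, from -0.0088 to 0.0175. The share of all genes called under it is not given here. The groups of 2 libraries did not overlap for 65 of 80 members (81.2%, against 77.2% of all tested genes). The count depended on single libraries, at 12 without shM14 replicate 1, 13 without shM14 replicate 2, 25 without shNS replicate 1 and 22 without shNS replicate 2. Of the 32, 10 passed in each of those 4 fits: HNRNPAB, HNRNPF, HNRNPLL, HNRNPR, LSM8, LSM10, SF3B5 and SNRPG were higher, and LSM14A and SRSF11 were lower. The other 22 each missed the threshold in at least 1 of these fits. In the authors' deposited table, 50 of the 83 members were under an adjusted p of 0.05 in NB4, 39 higher and 11 lower (60.2%, against 43.6% of all 16726 genes, 22.1% higher and 21.5% lower), and all 32 members called with limma were among them with the same direction. These 16726 genes include the low ones that the limma filter left out, whereas 80 of the 83 members passed that filter. The 60.2% and 43.6% therefore do not compare genes of like level.

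**Figure D1:**
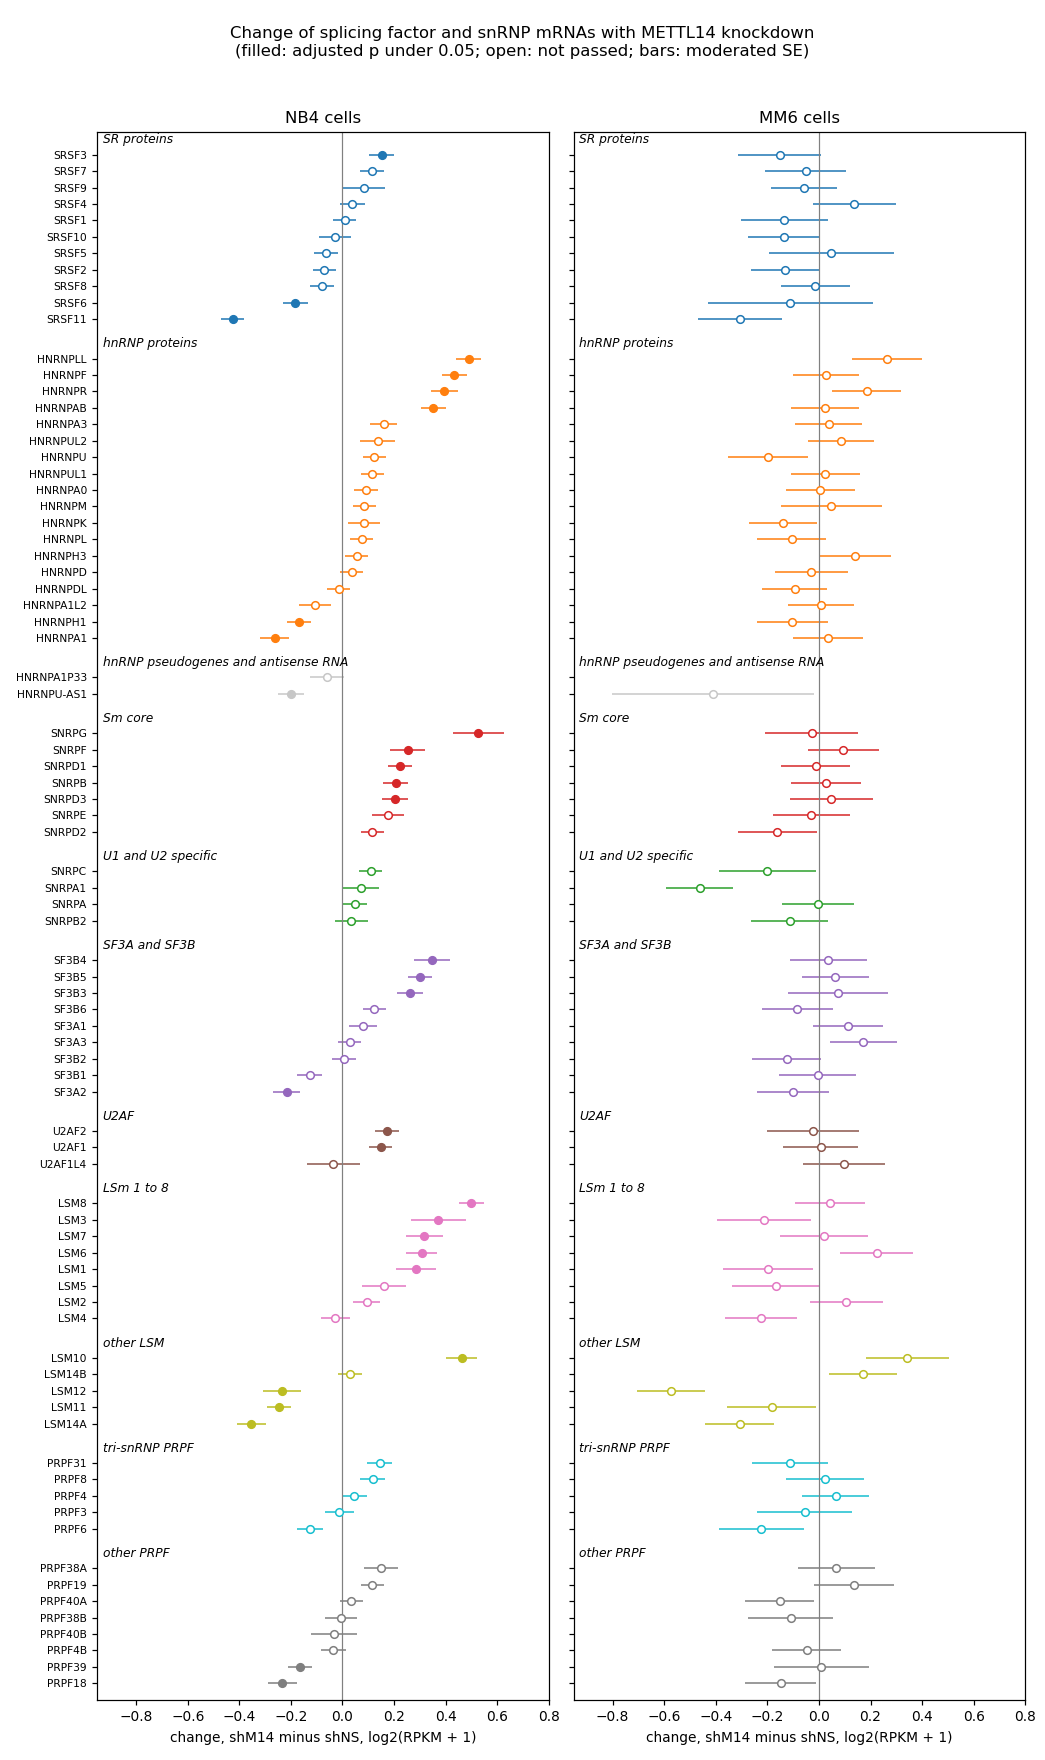
Change of each tested member with METTL14 knockdown, shM14 minus shNS in log2(RPKM + 1), in NB4 (left) and MM6 (right), grouped by role; points are estimates from 2 against 2 libraries, bars the moderated standard error, filled points an adjusted p under 0.05. In NB4, 10 filled points among the Sm and LSm 1 to 8 genes lie to the right of 0, and the MM6 panel has no filled point and wider bars.

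In NB4, each Sm core or LSm 1 to 8 gene that passed the threshold rose. Of the 7 Sm core genes, 5 rose, 0 fell and 2 did not pass (71.4% called, against 47.4% of all tested genes). Their median was 0.21. SNRPG (gene 6637), the G protein of the Sm ring, was at 373 and 347 RPKM in shM14, against 274 and 228 RPKM in shNS. Its groups did not overlap, and its change of 0.53 was the highest of all 80 members (SE 0.10, adjusted p = 0.012). SNRPF was at 262 and 235 RPKM in shM14, against 204 and 212 RPKM in shNS (0.25, SE 0.07, adjusted p = 0.031). SNRPB, which encodes the B and B′ proteins, was at 385 and 383 RPKM in shM14, against 325 and 340.1 RPKM in shNS (0.21, SE 0.05, adjusted p = 0.022). Changes of 0.22 in SNRPD1 and 0.20 in SNRPD3 also passed. SNRPE (0.18, adjusted p = 0.071) and SNRPD2 (0.12, adjusted p = 0.087) did not.

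Of the LSm 1 to 8 genes, 5 rose, 0 fell and 3 did not pass (62.5% called, against 47.4% of all tested genes). Their median was 0.30. LSM8 marks the nuclear ring on U6 and LSM1 the cytoplasmic ring that acts in mRNA decay, while LSM2 to LSM7 are in both. LSM8 (gene 51691) was at 18.6 and 17.9 RPKM in shM14, against 12.7 and 12.5 RPKM in shNS (0.50, SE 0.05, adjusted p = 0.0017). LSM1 was at 22.0 and 20.5 RPKM in shM14, against 18.4 and 16.1 RPKM in shNS (0.29, SE 0.08, adjusted p = 0.033). Genes of both rings were thus higher, with no overlap between groups. Among the shared subunits, LSM3 was at 112 and 115 RPKM in shM14, against 97.8 and 78.7 RPKM in shNS (0.37, SE 0.11, adjusted p = 0.039). LSM7 (0.32) and LSM6 (0.31) passed as well, and LSM5 (0.16), LSM2 (0.09) and LSM4 (-0.03) did not. Pooled after their values were seen, the 15 Sm and LSm 1 to 8 genes had a median of 0.22 and 10 calls. The median stayed between 0.20 and 0.25 without any 1 NB4 library and was 0.25 under median-of-ratios scaling. The calls were 2 without shM14 replicate 1, 5 without shM14 replicate 2, 10 without shNS replicate 1 and 6 without shNS replicate 2. They were 6 without the filter on low values, 13 with voom on the recovered reads and 1, LSM8, in 1 model of all 8 libraries, where no Sm core gene passed.

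Many ring genes are short, and short genes were somewhat higher in this comparison as a whole. The 907 tested genes with a gene model under 1000 bases had a median change of 0.07, and 24.9% of them rose. The 10 members of that length had a median of 0.30, and 7 of them rose. At 4000 bases or more, the median was 0.01 for 25 members and -0.03 for 4313 tested genes. The part of gene length in the ring gene values was not tested. Several Sm and hnRNP genes have processed pseudogenes that share their sequence, and how reads matching several places were counted is not given in the sources used here, so their levels are less certain.

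**Figure D2:**
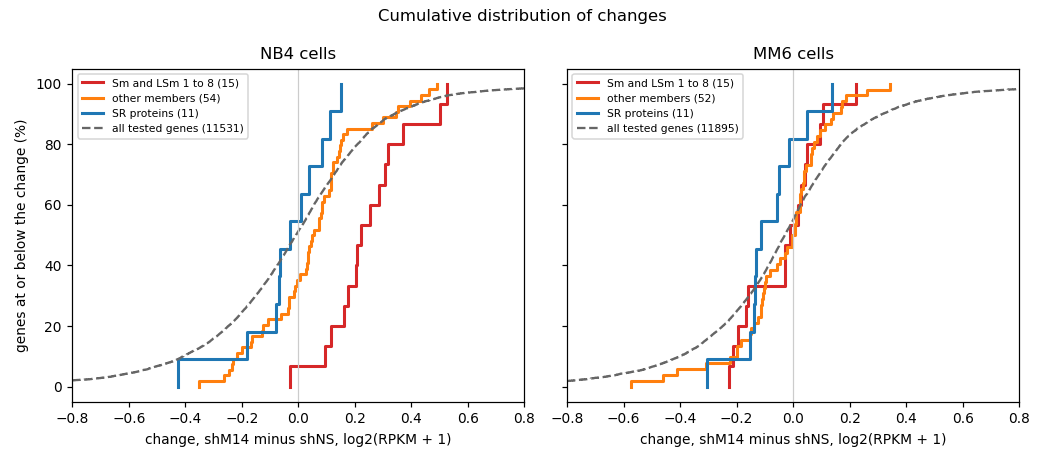
Cumulative share of genes (%) at or below each change, shM14 minus shNS in log2(RPKM + 1), in NB4 (left) and MM6 (right), for Sm and LSm 1 to 8 genes, SR genes, the other members and all tested genes. In NB4 the Sm and LSm curve lies to the right of the others around its median of 0.22, while the curve of all tested genes runs further right at the top. In MM6 the Sm and LSm curve crosses 0 near its middle.

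Genes of U2 recruitment gave a mixed picture in NB4. Of the 9 SF3A and SF3B genes, 3 rose, 1 fell and 5 did not pass (44.4% called, against 47.4% of all tested genes). SF3B4, a subunit of the SF3B complex that contacts the branch point region, was at 45.6 and 46.7 RPKM in shM14, against 38.3 and 34.0 RPKM in shNS (0.35, SE 0.07, adjusted p = 0.014). SF3B5, the smallest subunit, was at 137 and 134 RPKM in shM14, against 108 and 111 RPKM in shNS (0.30, SE 0.05, adjusted p = 0.0068). SF3B3 rose by 0.26. SF3A2, of the SF3A complex, fell by 0.22 (adjusted p = 0.023), to 30.1 and 31.4 RPKM in shM14, against 35.1 and 36.7 RPKM in shNS. SF3B1, the subunit recurrently mutated in myeloid neoplasms, was at 126 and 128 RPKM in shM14, against 142 and 136 RPKM in shNS (-0.13, adjusted p = 0.086). Both U2AF subunits passed with small changes, U2AF2 at 0.17 (adjusted p = 0.034) and U2AF1 at 0.15 (adjusted p = 0.047), and the U2AF1-like gene U2AF1L4 did not (-0.04). None of the 4 genes for proteins specific to U1 or U2 passed; the highest change among them was that of SNRPC, of U1, at 0.11 (adjusted p = 0.098).

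The hnRNP genes had 4 of 18 members higher, 2 lower and 12 not passed in NB4 (33.3% called, against 47.4% of all tested genes). HNRNPLL (gene 92906), known as a regulator of CD45 exon choice in lymphocytes, was at 24.3 and 25.1 RPKM in shM14, against 17.0 and 17.6 RPKM in shNS (0.49, SE 0.05, adjusted p = 0.0018). HNRNPF, which binds guanine runs as HNRNPH1 does, was at 100.3 and 99.7 RPKM in shM14, against 75.4 and 72.2 RPKM in shNS (0.43, SE 0.05, adjusted p = 0.0025). The close relative HNRNPH1 went the other way, with 280.2 and 276.5 RPKM in shM14, against 319.6 and 306 RPKM in shNS (-0.17, adjusted p = 0.039; 0.073 under median-of-ratios scaling). HNRNPR was at 51.0 and 49.9 RPKM in shM14, against 39.3 and 37.0 RPKM in shNS (0.39, SE 0.05, adjusted p = 0.0041). HNRNPAB was at 227 and 228.5 RPKM in shM14, against 182 and 174.5 RPKM in shNS (0.35, adjusted p = 0.0044). These 4 higher genes passed in every fit without 1 library. HNRNPA1, a general repressor of splice site use, fell by 0.26 (SE 0.06, adjusted p = 0.017), to 126 and 123 RPKM in shM14, against 155 and 144 RPKM in shNS. It did not pass without either shM14 library. The antisense transcript HNRNPU-AS1 fell by 0.20 (adjusted p = 0.026), while HNRNPU had a change of 0.12 (adjusted p = 0.077). The strand used in counting is not stated, so reads of these overlapping transcripts cannot be told apart.

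Among 11 SR genes tested in NB4, 1 rose, 2 fell and 8 did not pass (27.3% called, against 47.4% of all tested genes). SRSF11, gene 9295, a protein with an RS domain that interacts with U2AF, was at 58.2 and 57.6 RPKM in shM14, against 79.2 and 77.1 RPKM in shNS. This was the lowest change of all 80 members, -0.43 (SE 0.05, adjusted p = 0.0023), with tight replicates and no overlap. SRSF6 was at 89.3 and 91.0 RPKM in shM14, against 104 and 100.4 RPKM in shNS (-0.18, adjusted p = 0.030; 0.051 under median-of-ratios scaling). SRSF3, the smallest of the classical SR proteins, was at 143 and 142 RPKM in shM14, against 126 and 131 RPKM in shNS (0.15, adjusted p = 0.049), the value nearest to the threshold among those called. SRSF1, the founding member of the family, did not differ beyond its spread (0.01, adjusted p = 0.89). The median over the 11 genes was -0.03, and -0.0023 under median-of-ratios scaling.

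The remaining LSM genes moved apart in NB4, with 1 of 5 higher and 3 lower (80.0% called, against 47.4% of all tested genes). LSM10 and LSM11 replace 2 Sm proteins in the U7 snRNP, which processes the ends of replication-dependent histone mRNAs. LSM10 (gene 84967) was at 18.3 and 16.7 RPKM in shM14, against 12.2 and 12.7 RPKM in shNS (0.46, SE 0.06, adjusted p = 0.0040). Its partner LSM11 was at 3.48 and 3.33 RPKM in shM14, against 4.21 and 4.24 RPKM in shNS (-0.25, SE 0.05, adjusted p = 0.012). The pair thus moved in opposite directions without overlap, and the call of LSM11 was lost without either shM14 library. LSM14A, a protein of cytoplasmic P-bodies and of translational repression, was at 28.8 and 27.6 RPKM in shM14, against 37.6 and 35.0 RPKM in shNS (-0.35, SE 0.06, adjusted p = 0.0073). LSM12, another protein with an LSm domain, was at 32.9 and 30.1 RPKM in shM14, against 39.0 and 35.5 RPKM in shNS (-0.23, SE 0.07, adjusted p = 0.047; 0.075 under median-of-ratios scaling).

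None of the 5 PRPF genes of the U4/U6.U5 tri-snRNP passed in NB4. PRPF8, the large protein at the catalytic core, was at 50.3 and 51.9 RPKM in shM14, against 46.4 and 47.7 RPKM in shNS (0.12, adjusted p = 0.10). The largest change in that group was in PRPF31 (0.14, adjusted p = 0.055). Of the 8 other PRPF genes, 2 fell (25.0% called, against 47.4% of all tested genes). PRPF18, a factor of the second catalytic step, was at 6.83 and 6.26 RPKM in shM14, against 8.02 and 7.71 RPKM in shNS (-0.23, SE 0.06, adjusted p = 0.026), and PRPF39, known as a U1-associated factor, fell by 0.16 (adjusted p = 0.037). PRPF19, a ubiquitin ligase whose complex activates the spliceosome, had a change of 0.12 (adjusted p = 0.086).

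**Figure D3:**
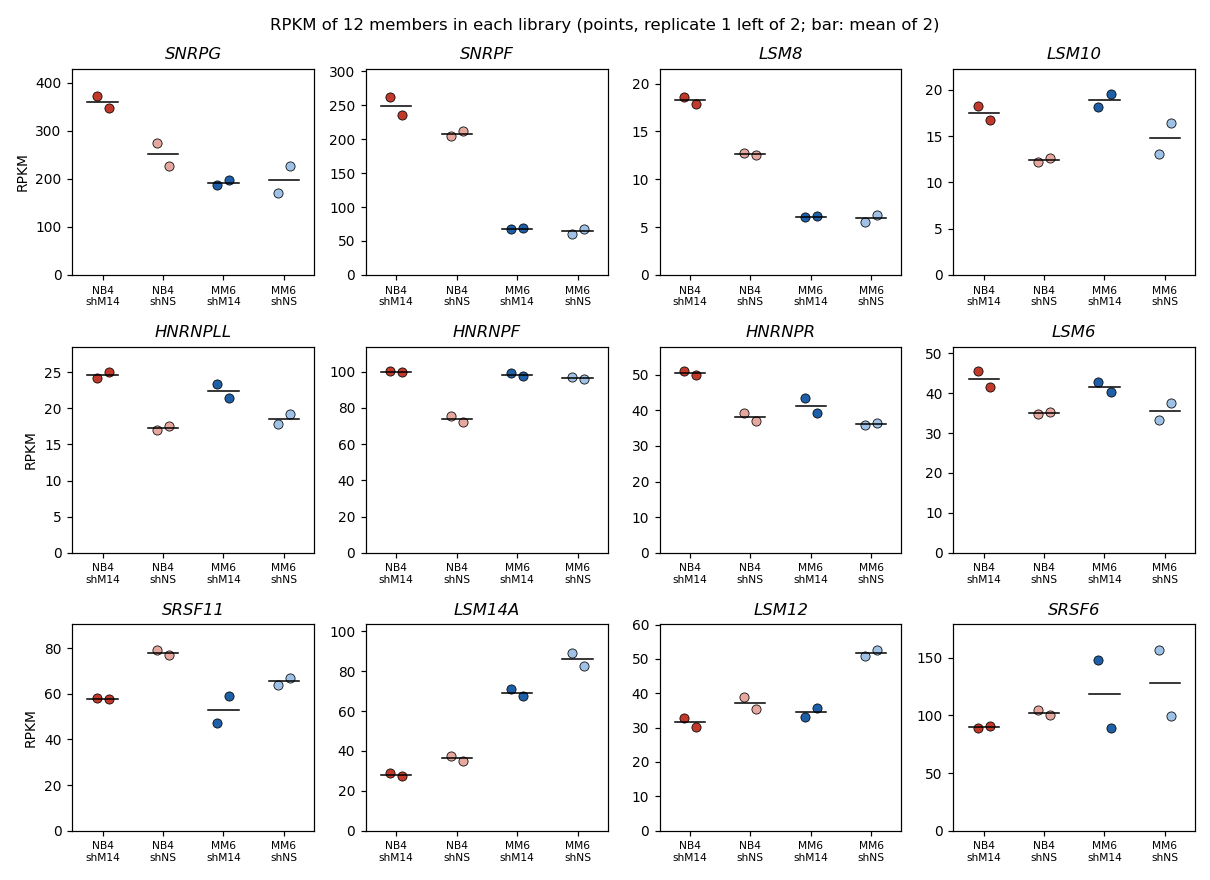
RPKM of 12 members in each of the 8 libraries, with NB4 shM14, NB4 shNS, MM6 shM14 and MM6 shNS from left to right; points are libraries, with replicate 1 left of replicate 2, bars the mean of 2, and each axis starts at 0. SNRPG, LSM8 and HNRNPF separate by hairpin in NB4. In MM6 the groups of SNRPG and LSM8 overlap and HNRNPF has a much smaller gap. LSM14A and LSM12 are lower with shM14 in both lines, and SRSF6 in MM6 has 1 high library in each group.

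In MM6, 0 of 78 tested members passed with limma, against 9 of 11895 genes in all (0.0757%). At an unadjusted p under 0.05 there were 2 members (15.0% of all tested genes). A voom fit called 0. None of the 83 members was under 0.05 in the authors' deposited table (count 0, against 3.28% of all 16726 genes, low ones included). The MM6 replicates lay further apart. The SD of the log2 difference between the replicates across the members was 0.21 in MM6 shM14 and 0.20 in MM6 shNS, against 0.06 in NB4 shM14 and 0.09 in NB4 shNS. The SR gene SRSF6 shows this, with 148 and 89.5 RPKM in shM14, against 156 and 99.2 RPKM in shNS. Its difference between replicates was larger than that between hairpins, and replicate 1 was the higher library in both groups. Across the MM6 members, deviations of same-numbered libraries correlated at 0.759, though the labels state no pairing. The limma fit above has no term for the replicate number. With such a term 2 members passed, LSM12 and SNRPA1. The groups overlapped for 51 of 78 members, and 27 (34.6%) did not overlap, against 44.8% of all tested genes.

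The lowest MM6 change was in LSM12, at 33.0 and 35.9 RPKM in shM14, against 50.9 and 52.5 RPKM in shNS (-0.57, SE 0.13, adjusted p = 0.16). SNRPA1, which encodes the A′ protein of U2, was at 111 and 115 RPKM in shM14, against 152 and 160.1 RPKM in shNS (-0.46, SE 0.13, adjusted p = 0.21). Both genes had groups that did not overlap, and both were under 0.05 in 1 model of all 8 libraries, which draws its spread from both lines (adjusted p = 0.015 and 0.023). Next were HNRNPU-AS1 at -0.41 with overlapping groups, and LSM14A and SRSF11 at -0.31 each, without overlap. The highest changes were LSM10 at 0.34 (adjusted p = 0.40), HNRNPLL at 0.26, LSM6 at 0.22, HNRNPR at 0.19 and SF3A3 at 0.17, each without overlap. The 15 Sm and LSm 1 to 8 genes had a median of -0.01, ranging from -0.11 without shNS replicate 1 to 0.11 without shNS replicate 2. SNRPG was at 188 and 197 RPKM in MM6 shM14, against 169 and 227 RPKM in MM6 shNS (-0.03, SE 0.18).

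Fitted over both lines, with cell line as a term, 7 of 80 members passed (8.75%, against 11.9% of 12804 genes, 4.8% higher and 7.1% lower). LSM10 (0.40, SE 0.09, adjusted p = 0.024), HNRNPLL (0.38, SE 0.08, adjusted p = 0.019), HNRNPR (0.29, SE 0.07, adjusted p = 0.041) and LSM6 (0.27, SE 0.07, adjusted p = 0.0495) rose. LSM12 (-0.40, SE 0.09, adjusted p = 0.027), SRSF11 (-0.37, SE 0.08, adjusted p = 0.029) and LSM14A (-0.33, SE 0.07, adjusted p = 0.018) fell. For each of the 7, every knockdown library lay beyond both controls of its line, in both lines. They were picked by a fit to the same libraries, so this separation is no separate support. Among all tested genes, groups did not overlap for 77.2% in NB4 and 44.8% in MM6. In MM6, HNRNPLL was at 23.4 and 21.4 RPKM in shM14, against 17.9 and 19.2 RPKM in shNS. LSM10 was at 18.2 and 19.6 RPKM in MM6 shM14, against 13.1 and 16.4 RPKM in MM6 shNS. LSM14A was at 71.1 and 67.5 RPKM in MM6 shM14, against 89.3 and 82.8 RPKM in MM6 shNS, and SRSF11 at 47.1 and 59.2 RPKM, against 63.9 and 67.1 RPKM. None of the 7 calls stood in every fit that left out 1 library. Without NB4 shM14 replicate 1, NB4 shM14 replicate 2, NB4 shNS replicate 1 and NB4 shNS replicate 2 the counts were 1, 0, 0 and 1; without MM6 shM14 replicate 1, MM6 shNS replicate 1 and MM6 shNS replicate 2 they were 3, 3 and 4, and without MM6 shM14 replicate 2 the count was 8.

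The difference between the lines was tested directly, as the MM6 change minus the NB4 change, and 0 of 80 members passed with limma (2.92% of all genes), nor with voom (0). At an unadjusted p under 0.05 there were 9 members (19.6% of all genes). The changes were lower in MM6 for 56 members and higher for 24, against 6834 lower and 5970 higher among all 12804 tested genes. The smallest adjusted p-values were those of SNRPA1 (-0.53, SE 0.12, adjusted p = 0.074), HNRNPF (-0.41, SE 0.10, adjusted p = 0.090) and LSM8 (-0.46, SE 0.12, adjusted p = 0.094). HNRNPF was at 99.2 and 97.7 RPKM in MM6 shM14, against 97.3 and 95.9 RPKM in MM6 shNS, close to the 100.3 and 99.7 RPKM of NB4 shM14. In the positive direction HNRNPA1 came first (0.30, SE 0.12, adjusted p = 0.24). All 7 Sm core genes had negative differences, from -0.55 to -0.16, and 7 of 8 LSm 1 to 8 genes did, yet none passed in this fit. These differences contain the NB4 changes, which were seen before the ring genes were pooled. The rise of Sm and LSm genes is therefore not shown by this fit to be particular to NB4.

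The promoters of 4 members called in the fits above are given to show the sequence that lies before such genes. They were chosen after their values and motif matches were seen, and the windows of SNRPG and SNRPB, which rose in NB4, and of LSM12, which fell, held no match and are not printed. They come from the RefSeq promoter table on build GRCh38.p14, which held 69 of the 83 members. Each is the longest stretch of the 250 bases before the annotated start that overlaps no exon of GENCODE release 29, read 5′ to 3′ on the strand of the gene. SNRPF, LSM10 and HNRNPR rose in NB4, and SRSF11 fell. Capitals mark matches on either strand. The motifs searched were CACGTG, the E-box bound by MYC with MAX, and CCGGAAGT of the ETS family. Further motifs were CCAAT, which NF-Y binds, and GGGCGG, the GC box of the SP family. The remaining ones were TATAAA, the TATA box, and ATGGCGGC of YY1. A match on the other strand appears as its reverse complement, so that ATTGG stands for CCAAT.
SNRPF, chr12:95858702-95858927, plus strand: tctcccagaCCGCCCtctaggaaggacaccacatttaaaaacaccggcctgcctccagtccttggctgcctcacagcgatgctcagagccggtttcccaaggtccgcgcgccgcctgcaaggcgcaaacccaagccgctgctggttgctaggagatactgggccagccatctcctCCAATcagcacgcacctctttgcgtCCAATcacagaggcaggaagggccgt
LSM10, chr1:36397909-36398158, minus strand: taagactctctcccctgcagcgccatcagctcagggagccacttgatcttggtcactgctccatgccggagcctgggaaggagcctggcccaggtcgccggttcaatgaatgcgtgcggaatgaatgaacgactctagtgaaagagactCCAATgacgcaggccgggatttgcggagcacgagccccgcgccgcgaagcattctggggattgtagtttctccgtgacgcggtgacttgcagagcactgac
HNRNPR, chr1:23344337-23344534, minus strand: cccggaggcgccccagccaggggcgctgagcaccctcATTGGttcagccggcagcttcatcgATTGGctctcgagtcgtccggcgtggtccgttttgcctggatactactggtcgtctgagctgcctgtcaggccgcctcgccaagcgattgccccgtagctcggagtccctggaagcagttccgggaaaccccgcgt
SRSF11, chr1:70221130-70221369, plus strand: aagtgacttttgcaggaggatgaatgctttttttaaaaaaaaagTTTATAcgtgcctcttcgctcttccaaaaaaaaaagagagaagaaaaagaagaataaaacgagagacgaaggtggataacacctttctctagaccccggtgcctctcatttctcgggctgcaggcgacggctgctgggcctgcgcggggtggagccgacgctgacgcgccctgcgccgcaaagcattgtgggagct
SNRPF and HNRNPR each held a pair of CCAAT matches and LSM10 a single one. SNRPF also held GGGCGG on the other strand, and SRSF11 held a TATAAA match on the other strand. Over the 250 bases before the starts, CCAAT was found in 46.4% of the 69 member genes, against 41.9% of the 9126 tested genes in the table and 37.0% of all genes in it. The ETS motif CCGGAAGT was found in 14 of 69 members (20.3%), against 9.09% of tested genes and 4.13% of all genes in the table. GGGCGG was found in 63.8% of members and 74.4% of tested genes, CACGTG in 8.70% and 11.5%, and TATAAA in 10.1% and 7.63%. ATGGCGGC was found in 2 members (2.90%, against 2.68%). These matches are a description of letters in a window, and no factor binding was measured.

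N6-methyladenosine is mostly written at adenosines within short motifs of which GGACT is the best known, and no methylation was measured here. The longest basic coding transcript in GENCODE release 29 was found for 78 of the 80 members tested in NB4 (97.5%) and for 87.7% of all tested genes. The median density was 0.726 GGACT per kilobase in the 21 members that rose, 0.776 in those of the 11 members that fell with a transcript, and 0.948 in those that did not pass. Over all tested genes it was 0.924, with 0.926 among those that rose and 0.924 among those that fell.

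Other genes of the splicing pathway, from 8 lists outside the naming rule, numbered 126, of which 123 were listed and 122 tested. In NB4, 24 rose, 19 fell and 79 did not pass (35.2%, against 47.4% of all tested genes), with a median of 0.00. Of 12 further snRNP proteins 4 rose and 0 fell. SNRNP25, a protein of the minor U11/U12 snRNP, was at 26.1 and 26.2 RPKM in shM14, against 16.9 and 19.0 RPKM in shNS (0.52, adjusted p = 0.0038), and TXNL4A, a small protein of U5, rose by 0.41. Of 16 factors of the PRPF19 complex and of activation 1 rose and 4 fell, led by SLU7, a second-step factor, at 15.2 and 13.8 RPKM in shM14, against 20.8 and 21.1 RPKM in shNS (-0.50, adjusted p = 0.0031). SYF2 (-0.42), RBM22 (-0.23) and SNW1 (-0.18) fell as well. Of 11 helicases 4 rose and 1 fell, with DDX46, which acts with U2, at 0.38 and DDX17 at -0.24. Of 16 SR-like proteins and SR kinases 4 rose and 4 fell; the SR kinase SRPK2 fell by 0.46 and the SR-like SREK1 by 0.45, while RNPS1 rose by 0.29. The exon junction and decay list had 2 of 15 higher, the core helicase EIF4A3 at 0.38 and MAGOH at 0.26, and 1 lower, UPF3B at -0.64. The list of other regulators had 4 of 30 higher and 5 lower, with MBNL3 at -0.56 and RBFOX2 at -0.47. In the snRNP assembly list 5 of 15 rose and 2 fell; STRAP of the SMN complex rose by 0.41, while SNUPN, which carries snRNPs into the nucleus, fell by 0.44. The minor spliceosome list had 0 of 7 higher and 2 lower, RBM48 at -0.38 and ZCRB1 at -0.27.

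In MM6, 0 of the 122 pathway genes passed. Over both lines 2 rose and 8 fell (8.20%, against 11.9% of all tested genes). DDX46 (0.32, adjusted p = 0.033) and WDR77, a partner of the Sm protein methylase (0.32, adjusted p = 0.036), rose. SLU7 (-0.50, adjusted p = 0.0080), SNUPN (-0.49), SRPK2 (-0.47), MBNL3 (-0.44), SREK1 (-0.41), SNRNP27 (-0.40), PNISR (-0.33) and CLNS1A (-0.25, adjusted p = 0.049) fell. SLU7 was at 11.8 and 13.0 RPKM in MM6 shM14, against 19.4 and 16.4 RPKM in MM6 shNS, so that its groups did not overlap there either. The difference between lines passed for 0 of 122.

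Between the control cells of the lines the median absolute difference of the members was 0.41 in log2, against 0.12 for the hairpin in NB4 and 0.10 in MM6. Over all tested genes these values were larger, at 0.61 between the lines, 0.18 for the hairpin in NB4 and 0.16 in MM6. In MM6 shNS against NB4 shNS, 26 of 79 members were higher, 21 lower and 32 not passed (59.5% called, against 71.1% of 12450 genes, 34.3% higher and 36.8% lower), with a median of 0.02. This compares cell lines with 2 libraries each, and each table was scaled per library with the same gene models. The count was 25 without NB4 shNS replicate 1, 24 without NB4 shNS replicate 2, 51 without MM6 shNS replicate 1 and 60 without MM6 shNS replicate 2, and 22 members passed in each of these fits. U2AF1L4, which encodes a shorter relative of U2AF1, had the highest difference, with 13.9 and 17.0 RPKM in MM6 shNS, against 3.61 and 4.56 RPKM in NB4 shNS (1.69, SE 0.15, adjusted p = 4.1e-04). SNRPF had the lowest, with 60.4 and 67.6 RPKM in MM6 shNS, against 204 and 212 RPKM in NB4 shNS (-1.69, SE 0.10, adjusted p = 1.3e-04). The other Sm genes differed less, with SNRPD3 at -0.51, SNRPB at -0.33 and SNRPD2 at 0.62 past the threshold. The mRNAs of 1 ring thus stood in different proportions in the 2 lines. The share of Sm core genes called was 57.1%, below the 71.1% of all tested genes.

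The LSm 1 to 8 genes split in the same comparison, 3 higher and 3 lower. Their share called was 75.0%, near the 71.1% of all tested genes (34.3% higher and 36.8% lower). LSM1 was at 38.5 and 48.1 RPKM in MM6 shNS, against 18.4 and 16.1 RPKM in NB4 shNS (1.27, SE 0.14, adjusted p = 9.2e-04). LSM8 was at 5.54 and 6.27 RPKM in MM6 shNS, against 12.7 and 12.5 RPKM in NB4 shNS (-0.98, SE 0.10, adjusted p = 6.0e-04). The subunits that distinguish the cytoplasmic from the nuclear ring were thus opposite, LSM1 higher and LSM8 lower in MM6. LSM7 was at 185.5 and 220.5 RPKM in MM6 shNS, against 83.0 and 77.5 RPKM in NB4 shNS (1.32, adjusted p = 4.5e-04). LSM3 (0.87) was also higher, and LSM5 (-0.60) and LSM2 (-0.39) lower. LSM14A, the P-body protein, was at 89.3 and 82.8 RPKM in MM6 shNS, against 37.6 and 35.0 RPKM in NB4 shNS (1.22, SE 0.09, adjusted p = 2.9e-04).

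**Figure D4:**
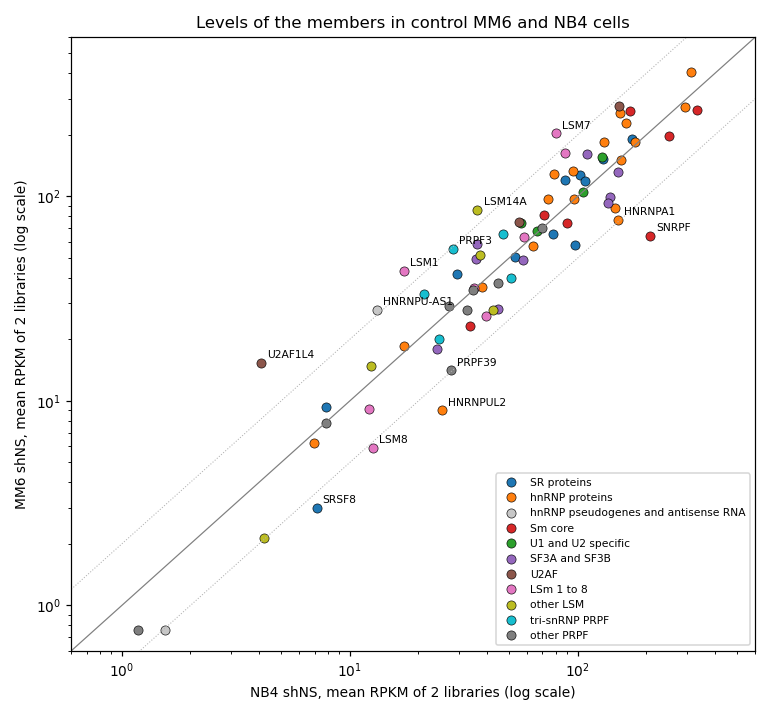
Mean RPKM of 2 libraries in MM6 shNS (vertical, log scale) against NB4 shNS (horizontal, log scale), 1 point for each of the 80 members that were tested in any comparison, coloured by role; the solid line marks equal levels and the dotted lines a 2-fold difference. U2AF1L4, LSM1, LSM7, LSM14A and HNRNPU-AS1 lie above the upper dotted line, and SNRPF, HNRNPUL2, SRSF8, LSM8 and the pseudogene HNRNPA1P33 below the lower one.

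All 3 U2AF genes were higher in MM6 shNS. Of all tested genes, 71.1% were called in this comparison, 34.3% higher and 36.8% lower. U2AF1 was at 253 and 298 RPKM in MM6 shNS, against 152 and 151 RPKM in NB4 shNS (0.85, adjusted p = 0.0016), and U2AF2 had a difference of 0.42. The tri-snRNP PRPF genes all passed, PRPF3 (0.93), PRPF31 (0.63) and PRPF8 (0.47) higher and PRPF6 (-0.35) and PRPF4 (-0.27) lower. Among hnRNP genes 7 of 18 were higher and 3 lower (55.6% called, against 71.1% of all tested genes). HNRNPUL2 was at 9.11 and 8.89 RPKM in MM6 shNS, against 26.8 and 23.9 RPKM in NB4 shNS (-1.40, adjusted p = 2.1e-04), while its paralog HNRNPUL1 was at 126.5 and 132 RPKM, against 78.4 and 79.3 RPKM (0.71, adjusted p = 0.0012). HNRNPA1 was at 80.2 and 73.0 RPKM in MM6 shNS, against 155 and 144 RPKM in NB4 shNS (-0.96, adjusted p = 7.2e-04), HNRNPH3 was lower (-0.73) and HNRNPL higher (0.73). SR genes were higher in 2 of 11 and lower in 3 (45.5% called, against 71.1%). SRSF8 was at 3.16 and 2.82 RPKM in MM6 shNS, against 7.20 and 7.09 RPKM in NB4 shNS (-1.03, adjusted p = 4.5e-04), and SRSF9 had a difference of -0.74. SF3A and SF3B genes were higher in 3 of 9 and lower in 4 (77.8% called, against 71.1%), from -0.65 in SF3B3 to 0.67 in SF3B4. PRPF39 (-0.94) and LSM11 (-0.74) were lower, and HNRNPU-AS1 (0.99) was higher.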

How the data were processed

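Poly(A) RNA of 8 libraries was sequenced in single-end reads of 50 bp with a directional kit, per the labels' protocols. No source used here names the aligner, read counter, genome build or statistical test of the authors. The authors deposited 1 table per line. Its RPKM values, a unit worked out from the values, are given per library; its signal columns are the authors' group means of reads divided by size factors; its fold ratio and log2 columns compare shM14 with shNS, per the file headers; its p-value columns are the authors' own. RPKM and group means together gave whole reads for 100% of the deposited values within 0.01. These reads gave the depth and the voom alternative.

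Testing was limited to genes reaching 1 RPKM in 2 or more fitted libraries and was done with limma 3.58.1 (R 4.3.3) on log2(RPKM + 1), with Benjamini-Hochberg adjustment over all tested genes and a threshold of 0.05; such values understate the change of low genes. SE is the moderated standard error. Each line was fitted alone; the common change, the difference between lines and the contrast of controls had fits of their own. The script was tested on simulated data. Gene lengths implied by both tables were equal in 9488 genes compared. Tables and figures were made with Python 3.11.15, pandas 2.3.3 and matplotlib 3.10.9. Sequences are from RefSeq (GRCh38.p14) and GENCODE release 29.

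Members and lists were chosen with earlier results of these data known. Members are named by rule: up to 10 called in each direction per comparison with the largest change, the 5 highest and 5 lowest where fewer than 5 passed, the 5 smallest p per direction for the difference, the highest level and largest NB4 change per role, the 10 highest levels, untested members, and up to 4 genes per pathway list by p. Others were named after their values were seen. Alternatives were a pseudocount of 0.1, no filter, a minimum of 5 RPKM, median-of-ratios scaling, a replicate block, a variance trend, voom, 1 model of 8 libraries, and leaving out each library.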

Additional observations from a re-analysis of the deposited data

How the results depend on the processing

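No named change that passed the threshold reversed its sign under any setting run. In NB4 the 32 members called became 49 with voom on the recovered reads (all 32 included) and 8 in 1 model of all 8 libraries, whose spread includes the wider MM6 replicates; they were 27 with a pseudocount of 0.1, 25 without a filter, 34 at 5 RPKM, 34 under median-of-ratios scaling and 45 with a variance trend, and 12 to 25 with 1 library left out. In MM6 the count of 0 became 2 in 1 model of all 8 libraries (LSM12 and SNRPA1). Over both lines the count of 7 was 5 with a pseudocount of 0.1 and 0 to 8 with 1 library left out. Between controls the count of 47 was 24 to 60 with 1 library left out. The cause of these shifts was not tested. With 1 library left out, the lone library of a group is assumed to vary like the others.

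The labels do not say that replicate numbers pair libraries. Deviations of same-numbered libraries correlated at 0.0797 in NB4 and 0.701 in MM6 across genes. With the replicate number as a block, 27 members passed in NB4, 2 in MM6 (LSM12 and SNRPA1), 5 over both lines, 2 for the difference (LSM1 and SNRPA1) and 44 between controls. Over the named genes and all settings run, 58 NB4 values lost their call, 6 gained one and 211 did neither.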
